A study of Arabidopsis thaliana with 16 samples.

Results

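Of the probes on the array that list a single gene, 67 read higher in the gun1-1 mutant than in wild type in each of 8 numbered pairs of samples and did so by a moderate amount. They were chosen by that reading. A member had to list exactly 1 gene in the platform's annotation, to lie above the WT sample of the same number in all 8 numbers, and to be 1.49-fold to 3.61-fold higher on average, as computed from the mean log2 difference, gun1 minus WT. Of 692 probes with 1 gene, 133 had a mean difference in that range, and 71 of those were higher in all 8 numbers. Left out by name were HEMA3, Z-ISO, AT3G52960 and GH9B11, which met these terms, and GH9B16, which did not, so that 67 of the 3439 probes in the table remained. Because the gun1 values themselves chose the members, every difference of a member below is a description and carries no test.

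Expression arrays were run on total RNA from Arabidopsis thaliana, with 8 samples of the gun1-1 mutant and 8 samples of WT, both in the ecotype Columbia 0 and each numbered 1 to 8. The labels call the mutant defective in plastid signaling. The sources used here give no tissue, age, growth conditions, dyes or treatment, and do not state whether separate plants stand behind the numbers, so the spread between them may be technical. In each sample the deposited values span 0 to 100, and levels are given here as normalized intensities on that scale, after quantile normalization, with a floor of 0.0313 to which lower values and zeros were set. The deposited medians were 0.216 to 0.259 in gun1 and 0.13 to 0.157 in WT, and the number of zeros was 193 to 274 in gun1 and 250 to 451 in WT. This difference between the arrays goes with genotype, and its part in the members' values cannot be told apart from the mutation.

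Plastids report their state to the nucleus, and nuclear genes for photosynthesis are switched down when plastid development is blocked. In the gun (genomes uncoupled) mutants this coupling is loosened and those genes stay on. GUN1 encodes a pentatricopeptide repeat protein of the plastid and is held to join several of these signals. None of 25 loci around this pathway that were listed for this comparison, GUN1 among them, had a probe naming it alone, so the mutated gene gave no check of the labels. Likewise 0 of 22 markers of seed, senescing leaf, guard cell, phloem, root and meristem had such a probe, so cell type makeup was not tested. In bulk RNA, a change in the share of cells of one type and a change in RNA per cell cannot be told apart.

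The log2 difference of the members ran from 0.589 to 1.81 with a median of 1.01, and 38 of 67 had a difference of 1 or more. Over all 3419 probes tested, the median was -0.0533. Limma called 63 of the 67 at an adjusted p under 0.05, where 16.6% of all probes tested were called higher in gun1 and 31.8% in either direction, but the rule used the same contrast and nothing is read from that count. The 4 members not called were AT1G55440, AT1G19490, AT4G18180 and AT5G11550. With the replicate number as a block all 67 were called, where 650 of 3419 probes tested were called higher in gun1. The rule requires the same pairing by number, so nothing is read from that count either. With consecutive numbers averaged, 43 of the 67 were called, where 333 of 3419 probes tested were called higher in gun1. The lowest gun1 sample lay above the highest WT sample in 22 members, against 4.8% of all probes tested, and the 2 sets of samples overlapped in 45. The same terms, higher in all 8 numbers and within the range, held for 10.3% of the probes with 1 gene tested and for 8.28% of the probes with several genes or none.

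**Figure D1:**
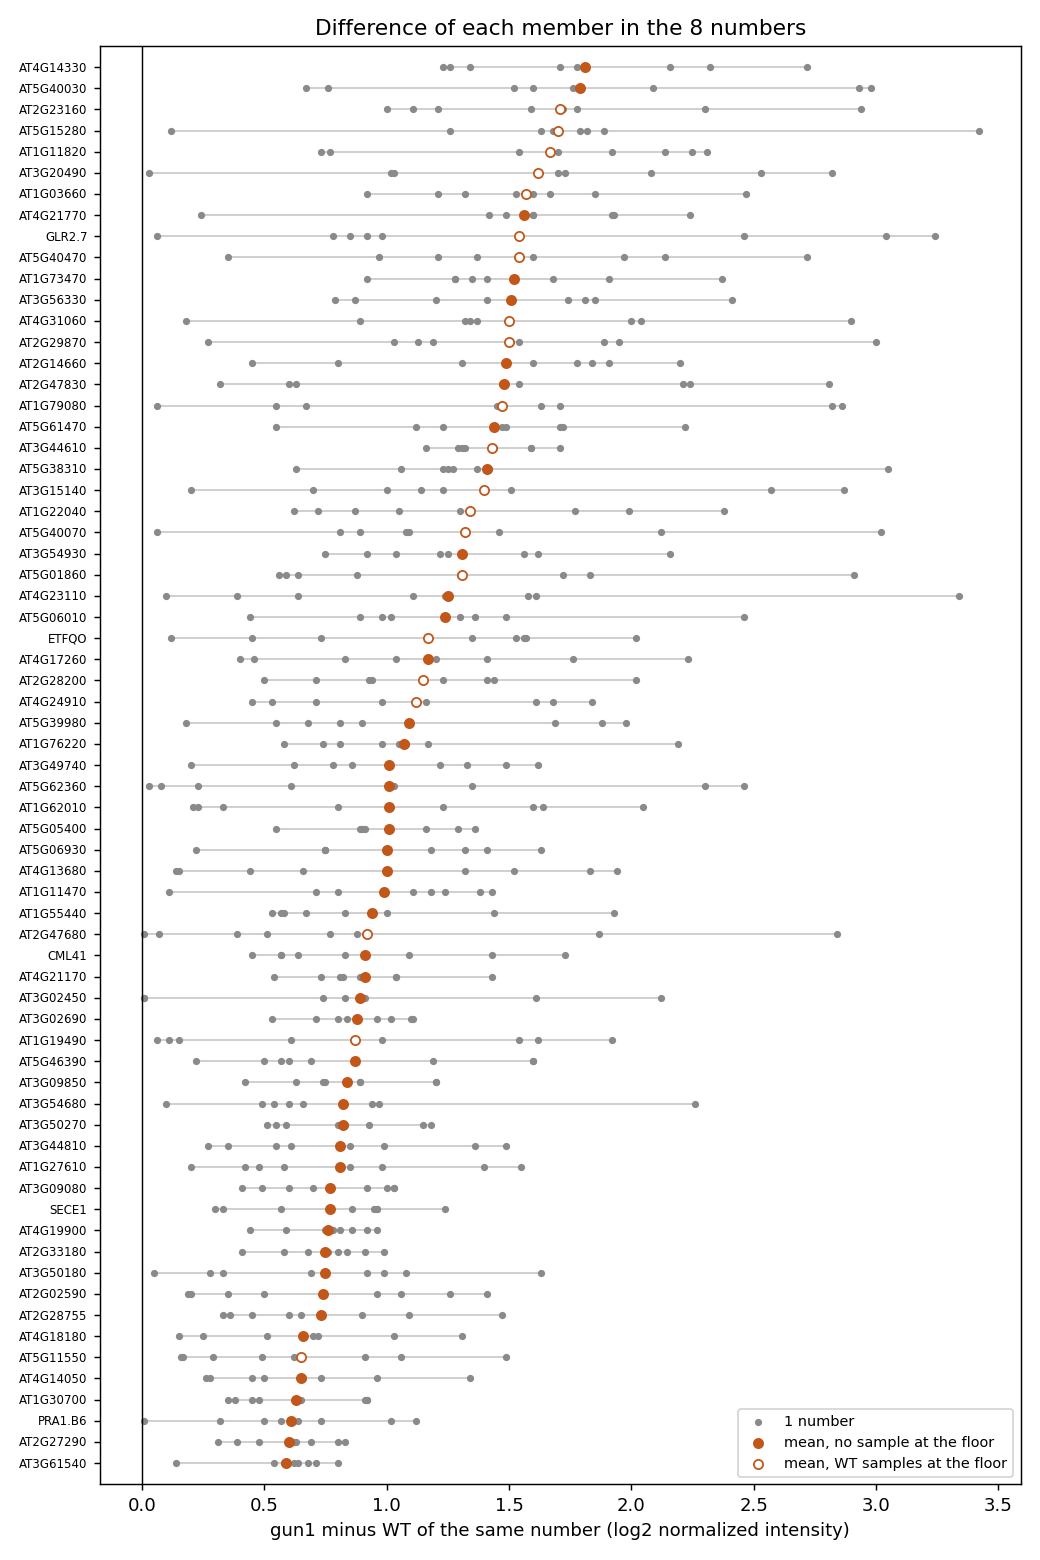
Difference gun1 minus WT on the log2 scale for each of the 67 members (rows, largest mean at the top). Grey points are the 8 numbers, the larger point is their mean, and open points mark the 21 members with WT samples at the floor; every point lies right of 0 because the rule requires it.

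Most members were dim. Their mean normalized intensity had a median of 0.315 in gun1 and 0.144 in WT, and 62 of 67 stayed under 1 in gun1. For the other 622 tested probes with 1 gene the medians were 0.159 in gun1 and 0.183 in WT. With the tested 1-gene probes split by mean level into 4 classes of equal size, 2.89% of the dimmest class were members, while the share in the other 3 classes lay between 11 and 12.8%. The dimmest class had geometric mean levels from 0.0318 to 0.0854. A probe with a gun1 sample at the floor of 0.0313 cannot meet the rule, which limits the share in that class. At least 1 WT sample lay at the floor in 21 members, and in 3 of them 4 or more did. Because of the rule, no gun1 sample of any member could lie there. With the floor at the 20th percentile, the difference shrank by more than 1.5 times in 13 of these 21 and in 2 of the other 46, AT4G21770 and AT5G06010. With the floor at the 1st percentile it grew by more than 1.5 times in 6 of the 21 and in 0 of the 46. Their difference also varied more between numbers, with a median SD of 0.749, against 0.481 in the 46 members without a sample at the floor.

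**Figure D2:**
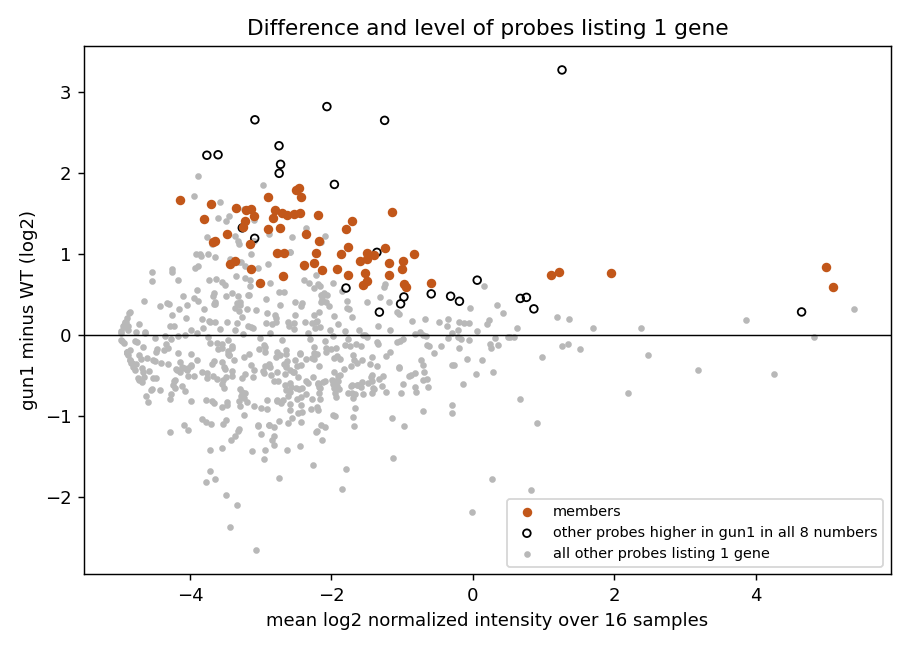
Mean log2 normalized intensity over 16 samples (x) and difference gun1 minus WT on the log2 scale (y) for the tested probes that list 1 gene. Members (filled) fill a band between 0.589 and 1.81, and 5 of them stand apart at the bright end.

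The members with WT means above 1 were AT3G09850, AT2G27290, AT4G19900, AT3G09080 and AT2G33180. AT3G09850, a G-patch domain protein of a class that binds RNA, was among the brightest probes of the array at 35.6 to 52.5 with a median of 41.7 in gun1, against 19.2 to 32.2 with a median of 22.9 in WT. The genotypes did not overlap, the 2 highest gun1 samples being numbers 1 and 2 and the highest WT sample number 8, and the difference was 0.84 ± 0.27 (log2, mean and SD over 8 numbers, as in all differences below). AT2G27290, whose role is not given here, ran from 32.2 to 57.3 with a median of 41.7 in gun1, against 24.8 to 33.5 with a median of 26.5 in WT. Its gun1 samples 7 and 8 were the lowest of their genotype and lay near the highest WT sample, so the genotypes overlapped, with a difference of 0.60 ± 0.19. Values that recur exactly among these samples come from the normalization, which gives probes of equal rank the same value.

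AT4G19900, of the alpha-1,4-glycosyltransferase family, ran from 3.22 to 6.29 with a median of 5.59 in gun1, against 2.38 to 3.6 with a median of 2.97 in WT. Samples 7 and 8 were the lowest in both genotypes, and the gun1 value of number 8 fell among the WT values. Its difference of 0.76 ± 0.17 had the smallest SD over numbers of all members. AT3G09080, a WD40 repeat protein, ran from 2.12 to 3.74 with a median of 3.28 in gun1, against 1.06 to 2.43 with a median of 2.02 in WT. Here too samples 7 and 8 were lowest in both genotypes, at 2.12 and 2.19 in gun1 and at 1.06 and 1.07 in WT. Across the genotypes the samples overlapped, while within each number the gun1 sample was higher, by 0.77 ± 0.25. AT2G33180, with no role given here, ran from 1.62 to 4.28 with a median of 3.1 in gun1, against 1.09 to 2.16 with a median of 1.8 in WT, and its numbers 3 and 4 were the lowest in both genotypes. The difference was 0.75 ± 0.19.

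The scaling of the samples set the size of many differences. With every sample scaled to a common median, where the median of all probes was -0.18, the log2 difference was 0.13 for AT3G09850, -0.06 for AT2G27290, -0.07 for AT4G19900, -0.04 for AT3G09080 and -0.08 for AT2G33180. The last 4 thus turned, and were the only members of the 67 to do so under that scaling. The loss was not confined to the 5 members with WT means above 1. Of the other 62, 7 kept less than 50% of their difference. These were AT4G14050 at 0.06, AT3G61540 at 0.11, AT1G30700 at 0.16, AT3G50180 at 0.34, AT3G50270 at 0.36, AT4G21170 at 0.45 and AT4G13680 at 0.48. All of these but AT3G50180 and AT3G50270 were among the 12 brightest members. A further 4, AT3G02690, SECE1, PRA1.B6 and AT4G18180, shrank by more than 1.5 times, to between 0.35 and 0.5. Of the 21 members with WT samples at the floor, 0 shrank that far under this scaling. In all, 17 members fell below the lower bound of the rule and 38 of the 67 still met it. On the deposited scale, where all probes had a median of 0.41, the 5 lay between 0.65 and 0.85, close to the quantile-normalized values. A dim member, the kinesin gene AT4G14330, went the other way. It had a difference of 1.81 after quantile normalization, 1.97 with a common median and 2.65 unscaled. Over all 67 the median difference was 1.14 with a common median, 1.86 unscaled and 1.04 under cyclic loess. The number of members higher in gun1 in all 8 numbers was 45 with a common median, 67 unscaled and 52 under cyclic loess. Unscaled, 34 members exceeded the upper bound of the rule and 0 fell below the lower one.

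**Figure D3:**
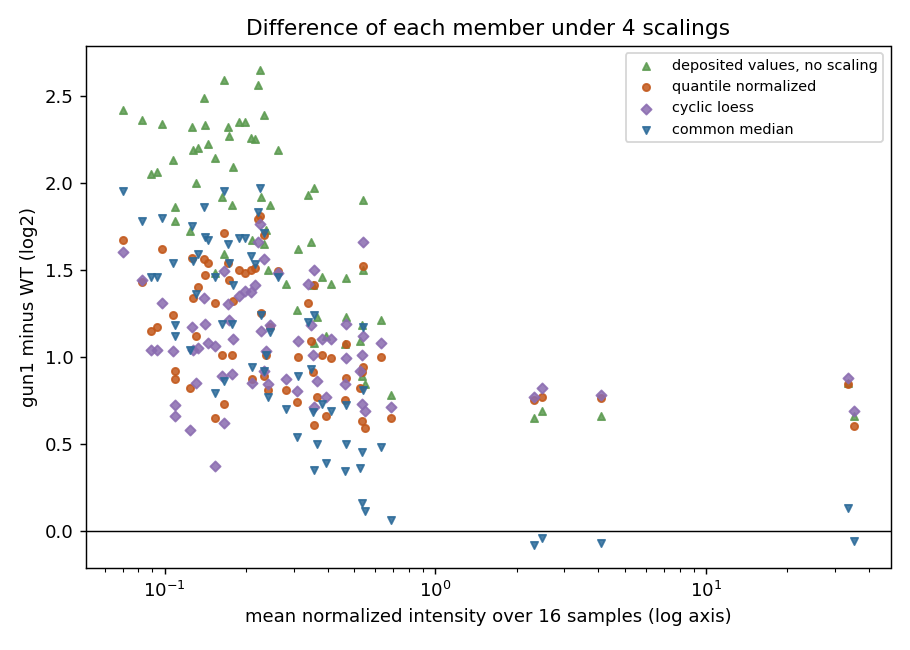
Difference gun1 minus WT on the log2 scale (y) of each member under 4 scalings, against its mean normalized intensity over 16 samples (x, log axis). The 5 members with WT means above 1 lie at 0.13 or lower with a common median, and from 0.6 to 0.88 under the other scalings; AT4G14050, AT3G61540 and AT1G30700, dimmer, lie at 0.06 to 0.16 with a common median.

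Among genes of transcription, 5 members were found, all of them dim. AT4G31060, an AP2/ERF factor of the family that includes ethylene and stress response regulators, ran from 0.166 to 0.34 with a median of 0.275 in gun1, against 0.0313 to 0.228 with a median of 0.0945 in WT. Its WT samples spread widely, with number 2 at the floor and number 3 at 0.228, inside the gun1 range, and the difference was 1.5 ± 0.82. AT5G61470, a C2H2 zinc finger protein, ran from 0.132 to 0.416 with a median of 0.215 in gun1, against 0.0399 to 0.191 with a median of 0.0926 in WT. Number 4 was the highest sample of both genotypes and number 8 the lowest, so that the genotypes overlapped although the difference of 1.44 ± 0.49 kept its sign in every number. AT5G01860, also of the C2H2 type, ran from 0.161 to 0.275 with a median of 0.213 in gun1, against 0.0313 to 0.157 with a median of 0.0934 in WT. The genotypes did not overlap, with WT sample 6 at the floor, and the difference was 1.31 ± 0.82. AT2G28200, a further C2H2 gene, ran from 0.051 to 0.15 with a median of 0.125 in gun1, against 0.0313 to 0.0975 with a median of 0.0492 in WT, where gun1 sample 6 stood below the rest, and the difference was 1.15 ± 0.48, or 0.45 with the floor at the 20th percentile. The bZIP factor gene AT1G19490, with 2 WT samples at the floor, had a difference of 0.87 ± 0.75 and was not called by limma.

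Probes that list several genes gave a separate reading for 2 members that the rule had not used. A probe that lists AT5G01860 together with 1 more gene ran from 3.16 to 4.76 with a median of 3.92 in gun1, against 1.9 to 2.85 with a median of 2.1 in WT. It was higher in gun1 in 8 of 8 numbers, by 0.80 on the log2 scale (SE 0.13, limma adjusted p = 0.000282, where 16.6% of probes were called higher). That fit takes the samples as independent, although samples of the same and of consecutive numbers were alike. The limma adjusted p was 0.00148 with the replicate number as a block and 0.0277 with consecutive numbers averaged. The difference of 0.80 depended on the scaling, being -0.02 with a common median (limma adjusted p = 0.903). It missed the threshold when only the numbers 5 to 8 entered (limma adjusted p = 0.0538). A probe that lists AT5G46390 with 2 more genes ran from 0.0592 to 0.309 with a median of 0.126 in gun1, against 0.0313 to 0.278 with a median of 0.182 in WT. It was higher in gun1 in 3 of 8 numbers, and its difference of -0.23 (SE 0.43) was not called (limma adjusted p = 0.727). Signal of such a probe cannot be assigned to 1 of its genes. None of the members had a second probe of its own.

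Signaling genes made up 5 members. AT5G40030, an AGC-type protein kinase, ran from 0.168 to 0.476 with a median of 0.375 in gun1, against 0.056 to 0.145 with a median of 0.101 in WT. The genotypes did not overlap; gun1 samples 1 and 2 were the highest, whereas WT samples 1 and 2 were the lowest, and the difference was 1.79 ± 0.86. AT3G44610, a kinase of the same group, was dimmer, at 0.0942 to 0.156 with a median of 0.116 in gun1, against 0.0313 to 0.0674 with a median of 0.0445 in WT. Its 3 WT samples at the floor were numbers 2, 3 and 4, and the difference was 1.43 ± 0.19. Its size is set by the floor, being 2.14 with the floor at the 1st percentile and 0.37 at the 20th. AT3G54930, a regulatory B subunit of protein phosphatase 2A, which directs the phosphatase to its substrates, ran from 0.305 to 0.68 with a median of 0.44 in gun1, against 0.0835 to 0.351 with a median of 0.172 in WT. Samples 7 and 8 were the highest in both genotypes, and the genotypes overlapped, with a difference of 1.31 ± 0.45. AT5G05400, a nucleotide-binding leucine-rich repeat protein of the type that recognizes pathogens, ran from 0.361 to 0.616 with a median of 0.528 in gun1, against 0.194 to 0.329 with a median of 0.24 in WT. Every gun1 sample lay above every WT sample, by 1.01 ± 0.26 on average. CML41, a calmodulin-like calcium sensor, likewise showed no overlap, with a difference of 0.91 ± 0.46.

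The largest group with a role given here, 12 members, acts on RNA. Roles were assigned to members only, so no share over all 1-gene probes stands beside such counts. Of the 12, 6 encode pentatricopeptide repeat proteins, which bind and process organelle transcripts. AT5G15280 of that family ran from 0.216 to 0.5 with a median of 0.345 in gun1, against 0.0313 to 0.266 with a median of 0.108 in WT. WT sample 4 lay at the floor and WT sample 5 at 0.266 within the gun1 range, so that the difference of 1.70 ± 0.90 ran from 0.12 to 3.42 between numbers, the higher of these being the highest of any member in any number. AT1G79080 ran from 0.107 to 0.317 with a median of 0.215 in gun1, against 0.0313 to 0.116 with a median of 0.0737 in WT. In number 1 the genotypes were nearly equal, at 0.107 in gun1 and 0.102 in WT, and the difference over all numbers was 1.47 ± 1.02. AT4G21170 ran from 0.528 to 0.98 with a median of 0.69 in gun1, against 0.284 to 0.484 with a median of 0.361 in WT, without overlap and with a difference of 0.91 ± 0.27, which was 0.45 with a common median. AT4G14050 ran from 0.76 to 0.919 with a median of 0.828 in gun1, against 0.363 to 0.656 with a median of 0.542 in WT. Its gun1 values varied least of the members without floor values (SD 0.11 on the log2 scale, against 0.32 in WT), the genotypes did not overlap and the difference was 0.65 ± 0.36, but with a common median it was 0.06. AT5G39980 and AT3G49740 completed the family with differences of 1.09 ± 0.67 and 1.01 ± 0.48, both with overlap.

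Enzymes that modify or trim RNA followed. AT4G21770, a pseudouridine synthase, ran from 0.135 to 0.352 with a median of 0.174 in gun1, against 0.0353 to 0.143 with a median of 0.0641 in WT. Its gun1 samples 7 and 8 were the highest of that genotype and its WT sample 5 of the other, with a difference of 1.56 ± 0.60. No sample lay at the floor, yet with the floor at the 20th percentile the difference was 0.96. AT3G56330, which methylates guanosine in tRNA, ran from 0.218 to 0.44 with a median of 0.31 in gun1, against 0.0586 to 0.155 with a median of 0.127 in WT. All gun1 samples exceeded all WT samples, and the difference was 1.51 ± 0.55. The ERI1-like exoribonuclease gene AT3G15140 had a difference of 1.40 ± 0.91 with 3 WT samples at the floor. The CCCH zinc finger helicase gene AT2G47680 had one of 0.92 ± 0.97 that came down to 0.01 in 1 number. AT1G62010, an mTERF protein that acts on organelle genes, did not overlap between genotypes and had a difference of 1.01 ± 0.72.

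**Figure D4:**
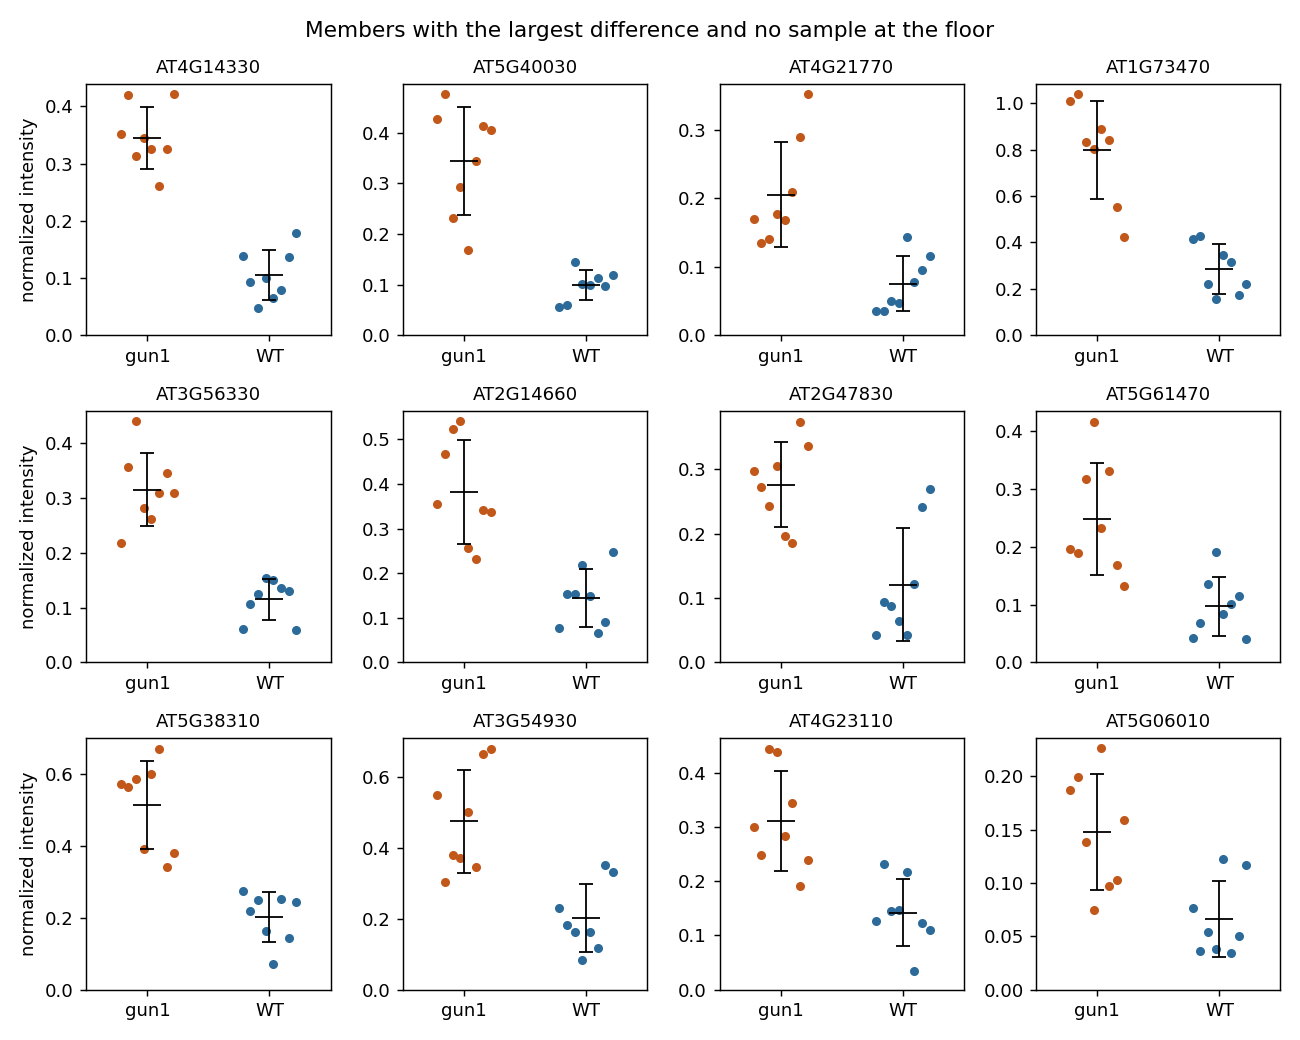
Normalized intensity (y) of the 12 members with the largest difference and no sample at the floor; points are the samples 1 to 8 from left to right within each genotype, gun1 left and WT right, with mean and SD bars (n = 8). The kinesin gene AT4G14330 and the kinase gene AT5G40030 show separate groups, while in AT2G47830 the WT samples 7 and 8 reach into the gun1 range.

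Transport and membrane proteins were represented by 5 members. GLR2.7, a glutamate receptor-like channel that passes cations, ran from 0.0618 to 0.296 with a median of 0.237 in gun1, against 0.0313 to 0.159 with a median of 0.0633 in WT. WT samples 1, 4, 5 and 6 lay at the floor while WT samples 3, 7 and 8 exceeded the gun1 samples 1 and 2, and the difference of 1.54 ± 1.19 had the largest SD of all members. AT2G29870, of the aquaporin family of water channels, ran from 0.168 to 0.458 with a median of 0.324 in gun1, against 0.0313 to 0.156 with a median of 0.129 in WT. The genotypes did not overlap, WT sample 5 being at the floor, and the difference was 1.5 ± 0.81. AT2G47830, of the cation efflux family that exports metals, ran from 0.185 to 0.374 with a median of 0.285 in gun1, against 0.0424 to 0.27 with a median of 0.0906 in WT. WT samples 7 and 8, at 0.241 and 0.27, lay inside the gun1 range, and the difference was 1.48 ± 0.90. AT2G02590, a small multidrug export family protein, ran from 0.294 to 0.507 with a median of 0.359 in gun1, against 0.154 to 0.304 with a median of 0.242 in WT, with overlap and a difference of 0.74 ± 0.49. PRA1.B6, a prenylated RAB acceptor of vesicle traffic, had a difference of 0.61 ± 0.36 that was 0.01 in 1 number.

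Protein turnover contributed 4 members. AT2G23160, an F-box protein, which marks others for degradation, ran from 0.172 to 0.302 with a median of 0.265 in gun1, against 0.0313 to 0.132 with a median of 0.0716 in WT. There was no overlap, WT sample 4 lay at the floor and the difference was 1.71 ± 0.66. AT1G22040, an F-box protein with kelch repeats, ran from 0.0983 to 0.319 with a median of 0.163 in gun1, against 0.0313 to 0.142 with a median of 0.0733 in WT. WT samples 3 and 4 lay at the floor, the genotypes overlapped and the difference was 1.34 ± 0.65. AT3G44810, also of the F-box family, ran from 0.262 to 0.454 with a median of 0.328 in gun1, against 0.123 to 0.252 with a median of 0.217 in WT, without overlap and with a difference of 0.81 ± 0.45. AT3G61540, a hydrolase like prolyl aminopeptidases, ran from 0.378 to 0.873 with a median of 0.738 in gun1, against 0.256 to 0.5 with a median of 0.47 in WT. Samples 7 and 8 were the lowest in both genotypes, and its difference of 0.59 ± 0.20 was the smallest of all members and was 0.11 with a common median.

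Plastid proteins outside RNA metabolism were 4 members with similar differences, from 0.77 to 0.89, and none of them had a sample at the floor. AT3G02450, an FtsH-like protein of the plastid, ran from 0.206 to 0.407 with a median of 0.299 in gun1, against 0.0647 to 0.3 with a median of 0.177 in WT. In number 1 the genotypes were almost equal, at 0.301 in gun1 and 0.3 in WT, and the difference was 0.89 ± 0.72. AT3G02690, an EamA-type transporter assigned to the plastid, ran from 0.433 to 0.87 with a median of 0.575 in gun1, against 0.272 to 0.43 with a median of 0.31 in WT. No WT sample reached the gun1 range, numbers 5 and 6 were the highest in both genotypes, and the difference was 0.88 ± 0.20, or 0.5 with a common median. AT5G46390, a C-terminal processing peptidase of the thylakoid, ran from 0.135 to 0.428 with a median of 0.284 in gun1, against 0.0667 to 0.226 with a median of 0.141 in WT with overlap and a difference of 0.87 ± 0.52. SECE1, a subunit of the thylakoid Sec translocase that threads proteins into the membrane, ran from 0.373 to 0.587 with a median of 0.437 in gun1, against 0.184 to 0.395 with a median of 0.267 in WT. WT sample 2, at 0.395, exceeded 1 gun1 sample, number 8 at 0.373, and the difference was 0.77 ± 0.33, or 0.5 with a common median.

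Metabolic enzymes beyond AT4G19900 were 4 members. AT4G17260, an L-lactate dehydrogenase of the fermentative pathway, ran from 0.244 to 0.452 with a median of 0.311 in gun1, against 0.0962 to 0.211 with a median of 0.139 in WT. No WT sample reached the gun1 values, and the difference was 1.17 ± 0.63. ETFQO, the mitochondrial oxidoreductase that passes electrons from amino acid breakdown to ubiquinone, ran from 0.0902 to 0.222 with a median of 0.11 in gun1, against 0.0313 to 0.116 with a median of 0.0478 in WT. WT samples 2, 3 and 8 lay at the floor, WT samples 5 and 7 lay within the gun1 range, and the difference was 1.17 ± 0.66, or 1.88 with the floor at the 1st percentile and 0.33 at the 20th. AT3G50270, an acyltransferase of the HXXXD type, ran from 0.534 to 0.889 with a median of 0.626 in gun1, against 0.289 to 0.502 with a median of 0.373 in WT. There was no overlap, samples 1 and 2 were the highest in WT, and the difference was 0.82 ± 0.26, or 0.36 with a common median. AT1G30700, a berberine bridge enzyme-like oxidase, ran from 0.516 to 0.915 with a median of 0.565 in gun1, against 0.273 to 0.656 with a median of 0.414 in WT. Number 4 was the highest sample of both genotypes, its WT value of 0.656 lying in the gun1 range, and the difference was 0.63 ± 0.25, or 0.16 with a common median.

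Cell wall genes were 4 members. AT1G11820, a beta-1,3-glucanase of the glycosyl hydrolase class, ran from 0.0519 to 0.155 with a median of 0.11 in gun1, against 0.0313 to 0.0358 with a median of 0.0313 in WT. WT lay at the floor in 7 of 8 samples, so the difference of 1.67 ± 0.63 is set by the floor, being 3.17 with it at the 1st percentile and 0.33 at the 20th. AT4G24910, of a family with enzymes that modify xylan, ran from 0.0952 to 0.301 with a median of 0.177 in gun1, against 0.0313 to 0.135 with a median of 0.0894 in WT, with overlap and a difference of 1.12 ± 0.54. AT5G62360, an invertase and pectin methylesterase inhibitor family protein, ran from 0.165 to 0.304 with a median of 0.225 in gun1, against 0.0497 to 0.204 with a median of 0.145 in WT. WT samples 5, 6 and 8 were the low ones, and the difference of 1.01 ± 0.96 ran from 0.03 to 2.46 between numbers. AT4G18180, a pectin-degrading polygalacturonase by family, ran from 0.22 to 0.973 with a median of 0.446 in gun1, against 0.185 to 0.456 with a median of 0.271 in WT. Samples 7 and 8 were the highest in both genotypes, and the difference was 0.66 ± 0.38, or 0.39 with a common median.

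The largest difference of all members was that of AT4G14330, a kinesin motor of the phragmoplast, the structure that lays down the new wall in dividing cells. It ran from 0.261 to 0.421 with a median of 0.335 in gun1, against 0.0476 to 0.179 with a median of 0.0972 in WT, or 3.52-fold between geometric means. All gun1 samples lay above all WT samples, and the difference was 1.81 ± 0.55. AT1G55440, a C1 domain protein, divided by number and was at 0.193 to 1.2 with a median of 0.621 in gun1, against 0.0547 to 0.811 with a median of 0.392 in WT. Samples 1, 2, 7 and 8 were high in both genotypes, between 0.954 and 1.2 in gun1 and between 0.662 and 0.811 in WT. Samples 3 to 6 were low in both, between 0.193 and 0.289 in gun1 and between 0.0547 and 0.121 in WT. Within each number the gun1 sample was higher, by 0.94 ± 0.50, while the genotypes overlapped. The armadillo repeat gene AT5G11550 had a difference of 0.65 ± 0.47.

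For 19 members no role is given here. AT1G73470 ran from 0.423 to 1.04 with a median of 0.836 in gun1, against 0.155 to 0.429 with a median of 0.27 in WT, its gun1 sample 8 lying just below the highest WT sample, with a difference of 1.52 ± 0.45. AT5G38310 ran from 0.34 to 0.67 with a median of 0.567 in gun1, against 0.0726 to 0.273 with a median of 0.232 in WT, without overlap and with a difference of 1.41 ± 0.71. The remaining members described by sample all overlapped between genotypes. AT2G14660 ran from 0.232 to 0.54 with a median of 0.349 in gun1, against 0.065 to 0.247 with a median of 0.15 in WT, with a difference of 1.49 ± 0.60. AT4G23110 ran from 0.192 to 0.444 with a median of 0.292 in gun1, against 0.0341 to 0.232 with a median of 0.136 in WT, and its difference of 1.25 ± 1.00 rested in part on WT sample 6, at 0.0341. WT sample 6 was also the lowest of AT5G06010, which ran from 0.0745 to 0.226 with a median of 0.148 in gun1, against 0.0345 to 0.122 with a median of 0.0521 in WT with a difference of 1.24 ± 0.59, and this was 0.55 with the floor at the 20th percentile. AT4G13680 ran from 0.541 to 1.25 with a median of 0.757 in gun1, against 0.141 to 0.633 with a median of 0.485 in WT, samples 7 and 8 being the highest in gun1, with a difference of 1.00 ± 0.74, or 0.48 with a common median.

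The other genes without a role given here differed by 1.62 (AT3G20490), 1.57 (AT1G03660), 1.54 (AT5G40470), 1.32 (AT5G40070), 1.07 (AT1G76220) and 1.00 (AT5G06930). Smaller differences were those of AT1G11470 (0.99), AT3G54680 (0.82), AT1G27610 (0.81), AT3G50180 (0.75) and AT2G28755 (0.73). WT samples lay at the floor in AT3G20490 (5 of 8), AT1G03660 (2), AT5G40470 (1) and AT5G40070 (1).

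Just inside the bounds of the rule lay AT3G61540 (0.59), AT2G27290 (0.60) and PRA1.B6 (0.61) at the lower end and AT4G14330 (1.81), AT5G40030 (1.79) and AT2G23160 (1.71) at the upper end. Just outside, and also higher in all 8 numbers, lay AT1G02020 (0.58, rounded), AT1G51080 (0.51) and AT5G42680 (0.48) below and AT1G73740 (1.86), AT4G16490 (2) and AT2G32040 (2.11) above. A further 35 probes with 1 gene fell in the range but were higher in only 7 of the 8 numbers.

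The differences were not equal across numbers. The median over the 67 members was 1.05, 1.08, 1.11 and 1.15 in the numbers 1, 2, 3 and 4, and 0.80, 0.96, 1.00 and 0.92 in the numbers 5, 6, 7 and 8. The mean over the first 4 numbers was larger than that over the last 4 in 51 members and smaller in 16. Number 4 held the largest difference of 13 members and the smallest of 2, while number 8 held the largest of 1 and the smallest of 13. In 12 members at least 1 number had a difference under 0.1, and these made up 15 of the 536 readings by member and number. With the numbers 5 to 8 alone, limma called 18 of the 67, where 179 of 3399 probes tested were called higher in gun1. With the numbers 1 to 4 alone it called 45, where 330 of 3380 were called higher.

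Deviations from the genotype mean were shared by samples of the same number. Over the 67 members, the correlation between the gun1 and the WT sample of a number lay between 0.223 and 0.659 with a mean of 0.423. Between different numbers the mean was -0.0605. That value is no separate comparison, since a probe's deviations cancel within each genotype and so tie it to the mean for the same number. Within a genotype, the consecutive numbers 1 and 2, 3 and 4, 5 and 6, and 7 and 8 were alike too, with a mean correlation of 0.407 in gun1 and 0.204 in WT, so the 8 numbers cannot be taken as 8 independent readings. Over all 3419 probes tested the mean for the same number was 0.239, and for consecutive numbers 0.251 in gun1 and 0.144 in WT. These are correlations across probes, which are not independent, and the rule used the same pairing. In the 46 members without floor values, the median SD on the log2 scale was 0.333 in gun1 and 0.454 in WT, and it was smaller in gun1 in 33 of them. In the 338 other 1-gene probes without floor values it was 0.448 in gun1 and 0.343 in WT, and smaller in gun1 in 102. The rule can drop a probe for 1 low gun1 sample or 1 high WT sample, so it also shapes the spread of the members. The level moves with this spread too, since members are brighter in gun1 by choice. The parts of rule and level were not tested, and nothing is read from the spread.

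By RefSeq's gene table, 66 of the 67 members could be placed on a chromosome. They made up 6.4% of the tested 1-gene probes on chromosome 1 (11 members), 9.68% on chromosome 2 (12), 12.4% on chromosome 3 (16), 10% on chromosome 4 (12) and 10.6% on chromosome 5 (15). A few lay close together. On chromosome 5, AT5G39980, a pentatricopeptide repeat gene, was followed after 4 other coding genes by the kinase gene AT5G40030 and after 3 more by AT5G40070. In the stretch of 53 coding genes from AT5G39980 to AT5G40470, 6 genes had a probe of their own, of which 4 were members, and AT5G40050 (log2 difference 0.56, higher in 5 of 8 numbers) and AT5G40140 (-0.96, higher in 2) were not. On chromosome 3, AT3G50180 and AT3G50270 had 8 coding genes between them, and on chromosome 2, AT2G47680 and AT2G47830 had 13. This stretch was picked after its values were seen and is given as a description of position.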

How the data were processed

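Arrays of 3439 probes were measured in 8 gun1 and 8 WT samples, grouped by title. The deposited intensity values are linear and run from 0 to 100; the authors' background correction, scaling, array layout and annotation steps are not stated in the labels or the file. Quantile normalization was done in R 4.3.3 with limma 3.58.1. Zeros and values below the 5th percentile of the other positive values were set to that floor, 0.0313, and log2 was taken. Probes constant in all samples (20) were left out, and 3419 were fitted with lmFit and eBayes, gun1 against WT, no covariate, two-sided, Benjamini-Hochberg at 0.05; the fit serves as background. The procedure was run on simulated data with values drawn independently for each sample, so that run gives no check for samples that are alike by number. Differences are means over the 8 numbers.

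Genes were named from the platform's annotation, which lists 1 gene for 692 probes, several for 870 and none for 1877, with 690 matched by Entrez number to RefSeq's table (TAIR10.1). That table holds no descriptions, so roles are background knowledge and were assigned to members only; class shares of the whole array and promoter motifs were not analysed here. Members and lists were chosen with earlier results of these data known. Genes described by sample are the 12 largest differences without floor values, the 12 brightest, up to 4 per class and the 3 steadiest and 3 most variable; others named here were picked after their values were seen. The numbers pair the samples: every same-number correlation of deviations over all probes was above 0.1 (0.143 to 0.421). The labels do not say how samples were pooled or replicated. Alternatives covered scaling, floor, a filter on dim probes, the replicate block, averaging of consecutive numbers, the numbers 1 to 4 or 5 to 8 alone and leaving out each sample. Figures were drawn with matplotlib 3.10.9.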

Additional observations from a re-analysis of the deposited data

Results flagged for a closer look

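Of the 81 sets of 8 values described by sample that hold no value at the floor, 3 had a sample far from the others of its genotype; chance marks about 1 in 20 such sets. AT2G28200 in gun1 replicate 6 was low, at 0.051 against a median of 0.126 in the others. AT4G24910 in gun1 replicate 8 was high, at 0.301 against 0.174. AT1G30700 in WT replicate 4 was high, at 0.656 against 0.406. AT1G11820 in WT replicate 8, at 0.0358, was marked by construction, since the other 7 WT samples were set to the floor of 0.0313.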

How the results depend on the processing

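The median difference of the 67 members, 1.01, was 1.14 with a common median, 1.86 without scaling, 0.84 with the floor at the 20th percentile and 1.13 in the numbers 1 to 4 alone. The 1-gene probes meeting the member rule, 67, became 112 without scaling, of which 33 were among the 67; the other 34 members had differences above the upper bound. With a common median 47 met it, of which 38 were among the 67. All probes called in either direction, 1088, became 592 with consecutive numbers averaged, 583 in the numbers 1 to 4 and 324 in the numbers 5 to 8, where fewer samples enter. Members called, 63, became 43 with consecutive numbers averaged and 18 in the numbers 5 to 8. All probes called higher in gun1, 567, became 333 and 179 there. Leaving out each sample gave 61 to 64 members called, 996 to 1065 probes called and a median of 1.00 to 1.12. A replicate block in the fit gave calls for all 67 members and for 1293 probes, 650 of them higher in gun1. Restricted to the 46 members without floor values, an alternative chosen after seeing the data, 44 were called and the median was 0.93. The share called among all probes without floor values was not computed, and the rule used the same contrast, so nothing is read from that count. With a common median, 4 of 47 members described by sample turned: AT3G09080 (-0.04), AT4G19900 (-0.07), AT2G33180 (-0.08) and AT2G27290 (-0.06). Of these 47, 30 moved by more than 1 SD over numbers without scaling, 9 more moved besides the 4 that turned with a common median, 6 moved with the floor at the 20th percentile and 3 with it at the 1st; 0 did under the other alternatives run on single members. For the probes listing a member with other genes, all alternatives were chosen after seeing the data; that of AT5G01860 had -0.02 with a common median, and that of AT5G46390 had 0.57 without scaling and 0.39 in the numbers 1 to 4. By limma, AT3G61540 lost its call without gun1 replicate 1, 2, 3, 4, 5 or 6 or WT replicate 7 or 8 (adjusted p from 0.0552 to 0.0704), and AT2G47680 without gun1 replicate 1 (0.0506). AT1G19490 gained one without gun1 replicate 3 or 4 or WT replicate 2 or 6 (0.0408 to 0.0497), and AT4G18180 without gun1 replicate 5 (0.0274). Fluorescence above background is not given, and the differences of dim members, 21 with WT samples at the floor, depend in size on the floor and on the scaling. Of these 21, 13 shrank by more than 1.5 times with the floor at the 20th percentile. Without scaling, 16 of them grew by more than 1.5 times, as did 23 of the 46 members without floor values. With a common median, 0 of the 21 and 16 of the 46 shrank by more than 1.5 times.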
